A study of Mus musculus with 9 samples.

Results

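Gene expression was compared between mouse embryos labelled as loaded with high glucose and control embryos, both at the 2-cell stage. The comparison used 6 of the 9 libraries of the series, 3 per group, and all genes with enough counts, which were 16964 of the 24454 genes in the table. All embryos were of the ICR strain, an outbred albino mouse stock, and were grown in vitro to the 2-cell stage, and 3 embryos were pooled in each library. The control group has no treatment label. The high glucose group is labelled with high glucose only, and the labels used here give neither its concentration nor when or how it was given. The remaining 3 libraries, high glucose with ZGW rat serum, entered the estimate of the spread and no comparison here. The labels call the libraries of a group biological replicates but name no separate matings, so the tests below measure the spread between these pools of 3 embryos.

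The 2-cell stage in the mouse is the time at which the embryo takes over from the oocyte. The fertilised egg starts with RNA and protein stored by the mother, most of which is cleared, while the embryo's own genome is switched on in waves that begin with genes such as the Zscan4 cluster. Early cleavage embryos live mainly on pyruvate and lactate rather than glucose, and glucose excess in this period is a common laboratory model of maternal diabetes.

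The labelled stage was visible in both groups. Zscan4c, a marker of the main wave of genome activation, was at 1500, 1095 and 3308 CPM (counts scaled to a common library size with TMM factors) in the control libraries and at 2111, 4375 and 2168 CPM with high glucose. Dppa3, a stored oocyte factor that protects maternal DNA methylation, was at 13735, 21702 and 15719 CPM in control embryos and at 7720, 9337 and 12471 CPM with high glucose. The Dppa3 ranges did not overlap, whereas those of Zscan4c did. Library totals ran from 12472285 to 14036995 counts. The 10 most counted genes took 14.0% to 15.3% of counts in control and 11.7% to 12.8% in high glucose libraries. The median correlation of a library with the others of its group was 0.810 to 0.823 in control and 0.852 to 0.864 in high glucose embryos.

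No gene differed between the groups at a Benjamini-Hochberg adjusted p under 0.05 in edgeR's quasi-likelihood test, a share of 0% of the 16964 genes. The smallest adjusted p by that edgeR test was 0.579. Without adjustment, 659 genes (3.88%) were higher with high glucose at p under 0.05 and 594 (3.5%) were lower. All 3 high glucose libraries lay above all 3 control libraries in 1160 genes (6.84%) and below them in 1172 genes (6.91%). DESeq2, run on the same counts, called 122 genes, 54 higher and 68 lower, and limma-voom called 0. For that reason the genes below are given as values, as higher or lower with high glucose, and none is called changed by the main test.

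Differences were spread about evenly in both directions. The median log2 fold change over all genes tested was -0.019, and the middle 50% lay between -0.57 and 0.50. The standard error of the log2 fold change had a median of 0.78 over all genes, and of 0.47 over the 7574 genes whose mean reached 10 CPM. Among genes with a mean of 1 to 10 CPM, 36.8% had a fold change beyond 2 in either direction. That share was 2.72% among genes with a mean of 100 to 1000 CPM. Within a group, the standard deviation of log2 CPM between libraries had a median of 0.436 with high glucose and 0.496 in controls over those 7574 genes.

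**Figure D1:**
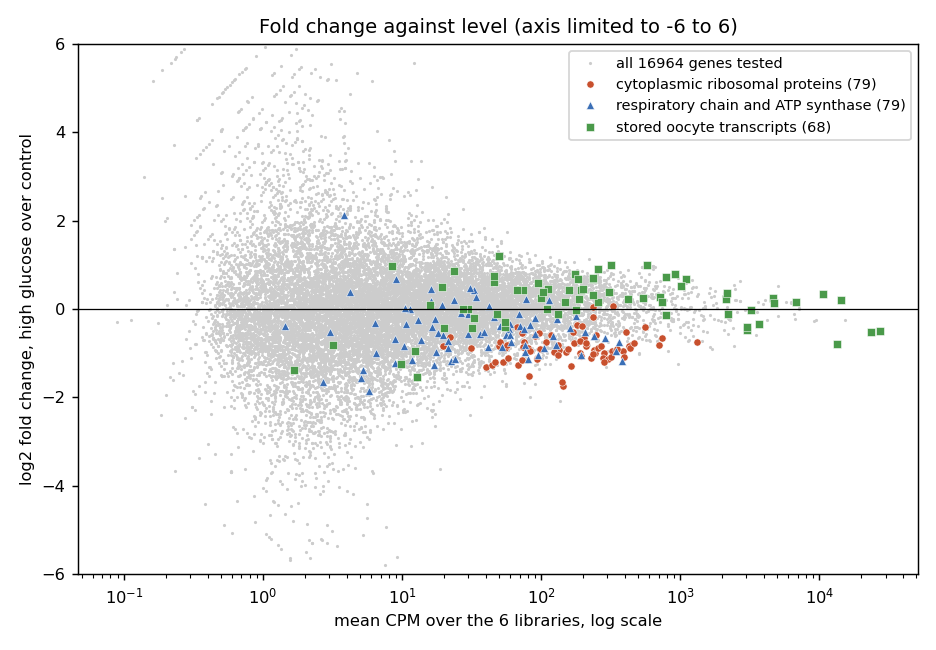
Log2 fold change of high glucose over control against mean CPM over the 6 libraries (log scale) for the genes tested, with 3 gene lists marked. The cloud narrows with level and is centred near 0, while 77 of 79 cytoplasmic ribosomal protein genes lie below 0.

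Among the 12 genes of lowest p-value that were higher with high glucose, 2 act on RNA. Tsnax (chr8:125012997-125034192 in GRCm38, which is mm10), a partner of translin in an RNA-cutting complex, was at 0.876, 2.61 and 2.63 CPM in control libraries and at 17.7, 15.9 and 29.4 CPM with high glucose. Every high glucose library was above every control library, and the log2 fold change was 3.36 ± 0.60 (SE). Fam46c, also called Tent5c, a poly(A) polymerase that lengthens RNA tails, was at 27.9, 29.6 and 26.0 CPM in controls and at 57.2, 69.5 and 82.1 CPM with high glucose. Its control libraries lay close together, and its log2 fold change was 1.32 ± 0.32 (SE).

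Chac2 (chr11:30976707-30986350), an enzyme that breaks down glutathione, had the largest fold change of these 12. Its levels were 0.730, 0.0746 and 0.658 CPM in controls and 34.4, 10.1 and 26.8 CPM with high glucose, a log2 fold change of 5.58 ± 1.13 (SE). Every control library was below 1 CPM and every high glucose library above 10 CPM. Gata4 (chr14:63198922-63271692), a regulator of primitive endoderm and heart in later development, was at 5.33, 5.74 and 3.22 CPM in controls and at 19.6, 19.7 and 22.4 CPM with high glucose. Its high glucose libraries hardly differed among themselves, and its log2 fold change was 2.11 ± 0.50 (SE). Mllt10, a cofactor of the histone methyltransferase Dot1l, went from 139 ± 14.4 CPM (SD, n = 3) to 305 ± 66.6 CPM.

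Ptdss1, which makes the membrane lipid phosphatidylserine, had a log2 fold change of 1.95 ± 0.50 (SE), and Tram2, a protein of the endoplasmic reticulum translocon, one of 2.53 ± 0.64, which was 3.32 without the first control library. The actin regulators Eps8 and Shroom2 stood at log2 fold changes of 1.63 ± 0.42 and 1.10 ± 0.28. Mbd5, of the methyl-CpG-binding domain family, was at 8.51 ± 3.60 CPM (SD, n = 3) in controls and 33.4 ± 6.21 CPM with high glucose. Hsdl1 and the kinase gene Stk32b had log2 fold changes of 2.94 ± 0.67 and 2.27 ± 0.58.

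Of the 12 genes of lowest p-value that were lower with high glucose, 3 encode proteins of the large ribosomal subunit and 2 mitochondrial proteins. Rpl13 (chr8:123102350-123105244) was at 222, 284 and 163 CPM in control libraries and at 62.1, 84.6 and 52.7 CPM with high glucose, a log2 fold change of -1.75 ± 0.30 (SE). The highest high glucose library stood below the lowest control library. Ndufb6 (chr4:40270591-40279421), an accessory subunit of respiratory complex I, was at 293, 250 and 241 CPM in controls and at 153, 134 and 91.7 CPM with high glucose. Chchd2, a protein of the mitochondrial intermembrane space, was at 85.1 ± 22.6 CPM (SD, n = 3) in controls and 26.2 ± 2.45 CPM with high glucose.

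Genes of other functions were among the lower ones too. Hagh (chr17:24840143-24864450), the second enzyme of the glyoxalase pathway that disposes of methylglyoxal, a by-product of glucose breakdown, was at 21.2, 20.9 and 40.2 CPM in controls and at 5.60, 7.85 and 3.26 CPM with high glucose. Its log2 fold change was -2.30 ± 0.57 (SE), with no overlap. Wwtr1, the Hippo pathway coactivator TAZ, was at 40.7, 16.5 and 17.4 CPM in controls and at 4.09, 6.70 and 5.06 CPM with high glucose. Yap1, its close relative, had a log2 fold change of 0.51 ± 0.24 in the opposite direction.

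Fxyd5, a regulator of the sodium pump, went from 52.0 ± 24.1 CPM (SD, n = 3) to 9.85 ± 3.42 CPM, and the cilia gene Rsph1 from 29.1 ± 8.83 CPM to 5.61 ± 1.75 CPM. Rab9, a small GTPase of late endosomes, had a log2 fold change of -1.71 ± 0.43 (SE) and Ier3ip1, an endoplasmic reticulum protein, one of -1.33 ± 0.34. Deb1 went from 230 ± 32.9 CPM to 92.8 ± 21.2 CPM. The adjusted p of the 24 leading genes lay between 0.579 and 0.627 in edgeR's test with Benjamini-Hochberg adjustment. All 24 were among the calls of DESeq2, which used the same counts and so gives no independent support.

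**Figure D2:**
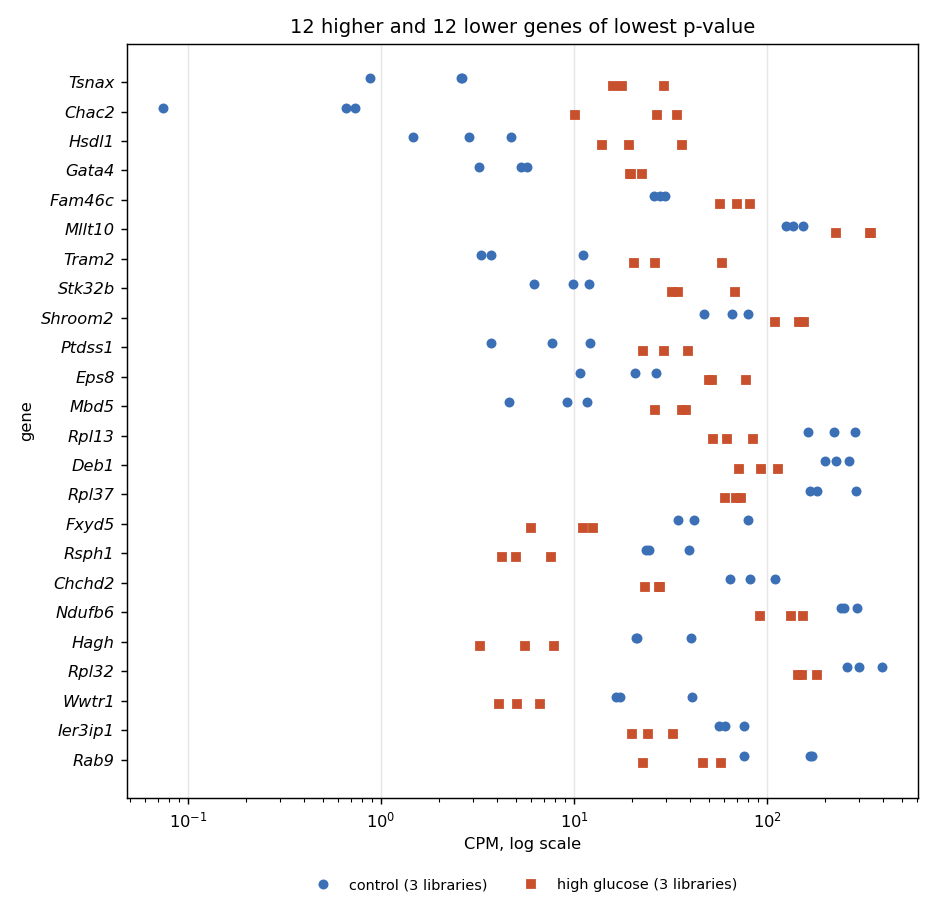
CPM on a log axis in each control and high glucose library for the 12 higher and 12 lower genes of lowest p-value among named genes whose mean reached 10 CPM. The groups do not overlap in any of the 24, which follows in part from how they were chosen, and none passed the adjusted threshold in edgeR's test.

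The widest pattern among the gene lists was in the cytoplasmic ribosomal proteins, the protein part of the machine that makes all proteins. Of 79 listed genes all passed the filter on low counts, 77 were lower with high glucose, and the median log2 fold change was -0.89 against -0.019 over all genes. The large subunit had 45 of 47 genes lower with a median of -0.92, and the small subunit 32 of 32 with a median of -0.87. At an unadjusted p under 0.05, 48 of the 79 were lower and 0 higher, and in 46 the groups did not overlap, against 3.5% and 6.91% of all genes in that direction. None passed the adjusted threshold in edgeR's test, while DESeq2 called Rpl13, Rpl37, Rpl30, Rpl32 and Rpl26. Over all 16964 genes DESeq2 called 122, of which 68 were lower. Rpl26 and the predicted gene Gm15772 had nearly the same mean, 323.51 and 323.45 CPM. Their log2 fold changes in DESeq2 were both -0.963. Whether the same reads were counted for both is not known. Rpl4 and Rpl17 were the 2 members not below 0, at log2 fold changes of 0.07 ± 0.25 and 0.04 ± 0.26 (SE).

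The summed counts of the 79 genes took 1.92%, 2.72% and 1.71% of the control libraries and 1.02%, 1.51% and 1.15% of the high glucose libraries. The second control library stood highest, and the third control and second high glucose libraries were nearest each other, without overlap. Rpl37 was at 167, 290 and 182 CPM in controls and at 60.5, 68.7 and 73.3 CPM with high glucose. Rpsa, which also serves as a laminin receptor, was at 42.3, 96.8 and 48.0 CPM in controls and at 24.9, 27.9 and 24.7 CPM with high glucose. Rplp0, of the ribosomal stalk, overlapped between groups at 635 ± 163 and 483 ± 52.1 CPM (SD, n = 3).

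Leaving out 1 library at a time kept the median of the 79 genes between -1.08 and -0.65. In CPM, which are shares of a library, fewer cells of a kind and less RNA per cell cannot be told apart. Many ribosomal protein genes have processed copies elsewhere in the genome, and 65 of the 79 shared at least 10% of their 50-base stretches with other transcripts of the annotation. The 14 with less sharing were all lower, with a median of -0.86. That share counts all annotated transcripts of a gene, so long transcripts without copies can lower it. Since 77 of the 79 genes were lower, most subsets would be too, and the part of such copies was not tested. The small nucleolar RNA genes Snord68 and Snord72 lie in introns of Rpl13 and Rpl37. In DESeq2 the 2 small RNA genes had log2 fold changes of -2.06 and -1.64, beside -1.76 and -1.68 for Rpl13 and Rpl37. How reads over overlapping genes were counted is not given in the sources used here.

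Ribosomal protein RNAs are short, and fold change varied with transcript length across all genes. The median log2 fold change was -0.32 in 2010 genes with transcripts under 1000 bases and 0.16 in 5251 genes with transcripts of 4000 bases or more. The median ribosomal protein transcript had 1059 bases. After the trend with length was removed, 76 of the 79 were lower and their median was -0.70. Markers of cumulus and granulosa cells, which surround the egg, were also lower. Of 20 listed, 11 passed the filter, 9 of them lower, and their summed level was 32.2 to 75.7 CPM in controls and 20.7 to 28.0 CPM with high glucose. Their median log2 fold change was -0.93, beside -0.89 for the ribosomal proteins, and 1 of the 11 reached a mean of 10 CPM. Igfbp5, the member of lowest p-value, was at 7.74, 1.57 and 2.78 CPM in controls and at 0, 0 and 0.0816 CPM with high glucose. None of the 20 was at 0 in all 6 libraries, and the part of these cells in the ribosomal protein result was not tested.

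Because these genes were lower together, the DNA around the starts of the 6 members of lowest p-value in the RefSeq promoter table (GRCm38.p6) is shown. Each window runs from 40 bases before the annotated start to 10 bases from it onward, 5′ to 3′ on the gene's strand. Starts of such genes are known for a pyrimidine-rich initiator. Capitals mark CTTTC, a pyrimidine run, on the shown strand, or CGGAA, the core bound by ETS family factors, on either strand (TTCCG where reversed). CTTTC and TTCCG can overlap.
Rpl13 (chr8:123102310-123102359, plus strand): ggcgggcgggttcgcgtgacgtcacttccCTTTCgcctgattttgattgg
Rpl37 (chr15:5116573-5116622, plus strand): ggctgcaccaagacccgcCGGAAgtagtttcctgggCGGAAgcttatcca
Rpl26 (chr11:68901526-68901575, plus strand): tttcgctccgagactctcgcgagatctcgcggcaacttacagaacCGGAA
Rpl11 (chr4:136053384-136053433, minus strand): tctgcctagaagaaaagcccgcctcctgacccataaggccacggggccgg
Rpl27 (chr11:101442205-101442254, plus strand): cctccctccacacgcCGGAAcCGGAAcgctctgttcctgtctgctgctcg
Rpl15 (chr14:18270977-18271026, minus strand): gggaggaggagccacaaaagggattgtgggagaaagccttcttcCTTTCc

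These windows were described and not tested, and both motifs were chosen after the windows were seen. The table held 58 of the 79 genes. CTTTC on the shown strand occurred in 14 of the 58 windows (24.1%), against 1840 of 27025 windows (6.81%) of all genes with an entry. CGGAA on either strand occurred in 18 of the 58 (31.0%), against 2639 of 27025 (9.77%). The window of Rpl11 held neither. Of the 6 genes shown, Rpl26 was at 410, 487 and 380 CPM in controls and at 206, 228 and 229 CPM with high glucose. Rpl11, with neither motif, was at 192, 368 and 140 CPM in controls and at 92.7, 91.4 and 102 CPM with high glucose. All 6 shown were lower, which follows from their choice by lowest p-value in a list with 77 of 79 genes lower. Members with and without the motifs were not compared.

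The respiratory chain and ATP synthase, which turn pyruvate-derived electrons into ATP in mitochondria, were lower to a smaller degree. Of 79 nuclear-encoded genes, 63 were lower with a median log2 fold change of -0.53, and 13 were lower and 1 higher at an unadjusted p under 0.05, against 3.5% and 3.88% of all genes. Complex I had 28 of 36 genes lower, complexes II to IV 21 of 26, and ATP synthase 14 of 17. Their summed share of counts was 0.646%, 0.671% and 0.510% in controls and 0.384%, 0.447% and 0.422% with high glucose. The 3 high glucose libraries were alike and all below the controls.

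Cox8a, a small subunit of cytochrome oxidase, was at 614, 632 and 345 CPM in controls and at 237, 256 and 214 CPM with high glucose. Cox7b, of the same complex, was at 136, 88.9 and 105 CPM in controls and at 34.9, 61.1 and 54.7 CPM with high glucose. Neither gene overlapped between the groups. Atp5g1, which encodes the rotor ring subunit of ATP synthase, went from 455 ± 107 CPM (SD, n = 3) to 235 ± 92.6 CPM, and Atpif1, the inhibitor of that enzyme, from 102 ± 21.2 CPM to 51.7 ± 13.2 CPM. The transcripts of this list had a median of 1141 bases. With the length trend removed, 58 of the 79 were lower and the median was -0.30.

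Mitochondrial ribosomal proteins, which translate the mitochondrial genome, had 55 of 77 genes lower with a median of -0.31, and 3 were lower at an unadjusted p under 0.05, a share close to the 3.5% of all genes. Mrpl4 was at 61.1, 49.8 and 63.9 CPM in controls and at 17.1, 24.4 and 38.4 CPM with high glucose. Translation initiation and elongation factors had 26 genes higher and 24 lower with a median of 0.01. Eif4ebp1, a repressor of cap-dependent translation, was at 98.2, 86.7 and 50.4 CPM in controls and at 31.0, 17.6 and 42.3 CPM with high glucose. Eif4b, a helicase cofactor in initiation, was higher, from 51.7 ± 14.9 CPM (SD, n = 3) to 93.1 ± 11.1 CPM.

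Nucleolar ribosome assembly factors had 40 of 68 genes lower, with a median of -0.22. Nop10, a core protein of the RNA pseudouridylation complex, was at 175, 192 and 187 CPM in controls and at 87.2, 115 and 103 CPM with high glucose. Its groups were tight and did not overlap. No test of the difference between these lists was made.

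**Figure D3:**
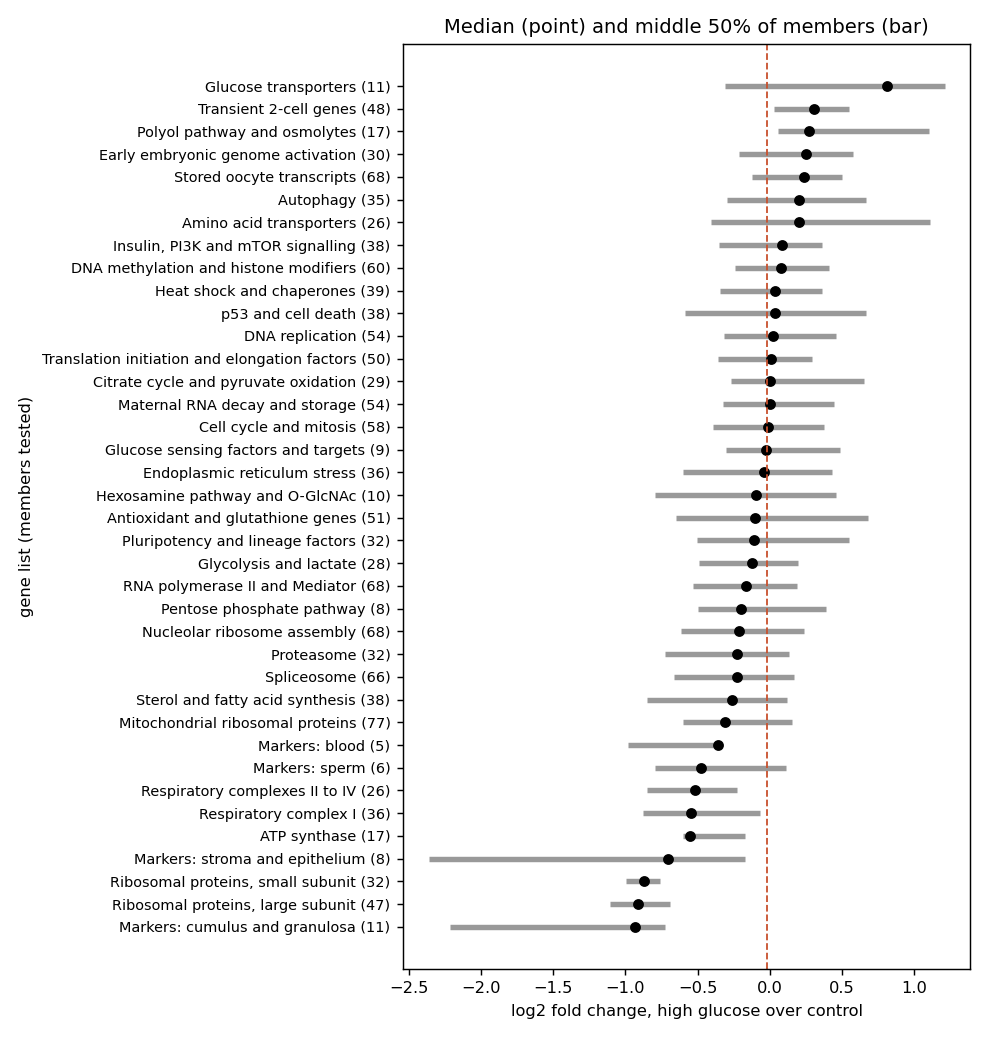
Median log2 fold change (points) and middle 50% of members (bars) for each gene list, with the number of members tested in brackets and the median of all genes as a dashed line. The 2 ribosomal protein lists lie near -0.9 with narrow bars, and the cumulus and granulosa markers near -0.9 with a wide bar. Most other lists lie within 0.3 of the dashed line.

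**Figure D4:**
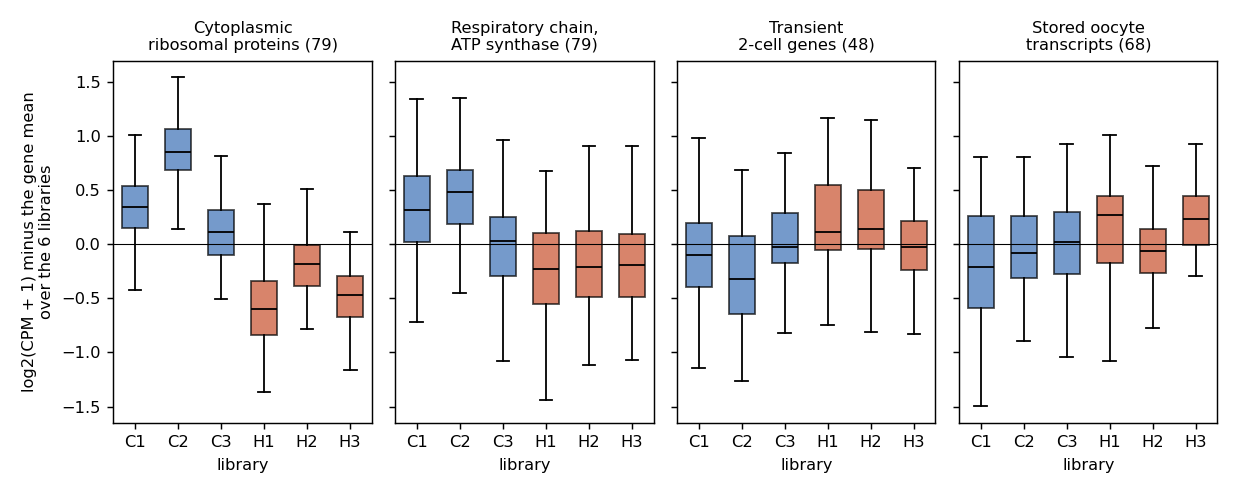
Log2(CPM + 1) of each member minus its mean over the 6 libraries, for 4 gene lists, in control libraries (C1 to C3) and high glucose libraries (H1 to H3); boxes give the middle 50% of members, lines the median and whiskers the range of members within 1.5 box lengths. Ribosomal protein and respiratory genes are lower in all 3 high glucose libraries, while the 2-cell and stored oocyte lists overlap between groups.

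Genes that take up and use glucose showed no common direction. Slc2a1, the main glucose transporter of the early embryo, was at 30.6, 57.8 and 9.72 CPM in controls and at 21.9, 10.4 and 23.9 CPM with high glucose. Slc2a3, the high-affinity transporter, was at 29.6, 12.2 and 4.68 CPM in controls and at 16.6, 15.3 and 8.24 CPM with high glucose. Both genes overlapped widely, and their standard errors on the log2 scale were 0.65 and 0.74. Of 11 transporters tested, 7 were higher and 4 lower, with 0 at an unadjusted p under 0.05 (3.88% and 3.5% of all genes). In 2 of the 11 the high glucose libraries were all higher and in 0 all lower, against 6.84% and 6.91% of all genes. Those 2, Slc2a2 and Slc5a4a, had means of 0.80 and 1.70 CPM over the 6 libraries. Only 2 of the 11 transporters reached a mean of 10 CPM. The list median was 0.81, and it was 0.34, 0.37, 0.19, 0.42 and 0.54 without control library 2, control library 3, high glucose library 1, high glucose library 3 and ZGW serum library 3, each left out alone. The summed share of counts was 0.859 times the control share.

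Hk1, hexokinase of the first glycolytic step, was at 0.219, 6.56 and 1.83 CPM in controls and at 0.0757, 0.770 and 0.408 CPM with high glucose. Ldhb, the lactate dehydrogenase subunit stored in oocytes, was at 1407 ± 183 and 1562 ± 385 CPM (SD, n = 3), and Gapdh at 154 ± 30.1 and 144 ± 38.7 CPM. None of these differed beyond the spread of its libraries. In glycolysis, 11 genes were higher and 17 lower with a median of -0.12. Fbp1, which runs the committed step of glucose synthesis, was at 30.4, 3.35 and 17.1 CPM in controls and at 63.3, 50.2 and 67.8 CPM with high glucose, a log2 fold change of 1.83 ± 0.63 (SE) that was 2.56 without the first control library. Tigar, an enzyme that lowers the glycolytic activator fructose 2,6-bisphosphate, was at 51.3 ± 9.59 CPM in controls and 27.6 ± 11.1 CPM with high glucose.

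Txnip, the classical transcriptional readout of glucose inside cells, was at 15.6, 23.4 and 29.1 CPM in controls and at 19.2, 22.5 and 24.96 CPM with high glucose. Its log2 fold change was -0.03 ± 0.40 (SE), with wide overlap. The other 8 tested genes of the glucose sensing list split 4 higher and 4 lower. In the polyol pathway and osmolyte list, 13 of 17 genes were higher with a median of 0.27. Akr1b3, the aldose reductase that turns glucose into sorbitol, overlapped between groups at 213 ± 27.8 and 267 ± 118 CPM (SD, n = 3). Sord, which oxidises sorbitol, was at 10.1, 12.2 and 12.3 CPM in controls and at 44.4, 6.62 and 23.3 CPM with high glucose. Aqp9, a channel for glycerol and water, was at 11.4 ± 6.37 CPM in controls and 24.9 ± 2.72 CPM with high glucose, without overlap.

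G6pdx, the entry enzyme of the pentose phosphate pathway, was at 260, 370 and 333 CPM in controls and at 476, 341 and 566 CPM with high glucose. Of the 8 genes tested in that pathway, 3 were higher and 5 lower. The hexosamine pathway, which supplies the sugar for O-GlcNAc on proteins, had 4 genes higher and 6 lower. Its transferase Ogt stood at 25.1 ± 14.3 and 23.7 ± 13.2 CPM (SD, n = 3). Insulin, PI3K and mTOR signalling had 20 genes higher and 18 lower with a median of 0.08. Within it Foxo1, a transcription factor held in check by insulin, was at 66.0, 165 and 127 CPM in controls and at 190, 174 and 231 CPM with high glucose.

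Downstream of glucose, pyruvate oxidation and the citrate cycle had 16 genes higher and 13 lower with a median of 0.005, and 4 were higher and 1 lower at an unadjusted p under 0.05, against 3.88% and 3.5% of all genes. Cs, citrate synthase, was at 111, 141 and 222 CPM in controls and at 280, 246 and 273 CPM with high glucose. Mdh1, the cytosolic malate dehydrogenase, was at 31.5, 44.5 and 34.0 CPM in controls and at 107, 60.7 and 73.3 CPM with high glucose. Dlst, a subunit of the 2-oxoglutarate dehydrogenase complex, went from 10.2 ± 6.74 CPM (SD, n = 3) to 29.0 ± 4.79 CPM. All 3 enzymes, named for their low p-values, were higher in every high glucose library than in any control library. In the list, 5 of 29 genes were higher and 1 lower without overlap, against 6.84% and 6.91% of all genes. Mpc2, a subunit of the mitochondrial pyruvate carrier, went the other way, from 96.8 ± 9.37 CPM to 51.4 ± 24.7 CPM, and its partner Mpc1 overlapped at 1139 ± 312 and 862 ± 172 CPM.

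**Figure D5:**
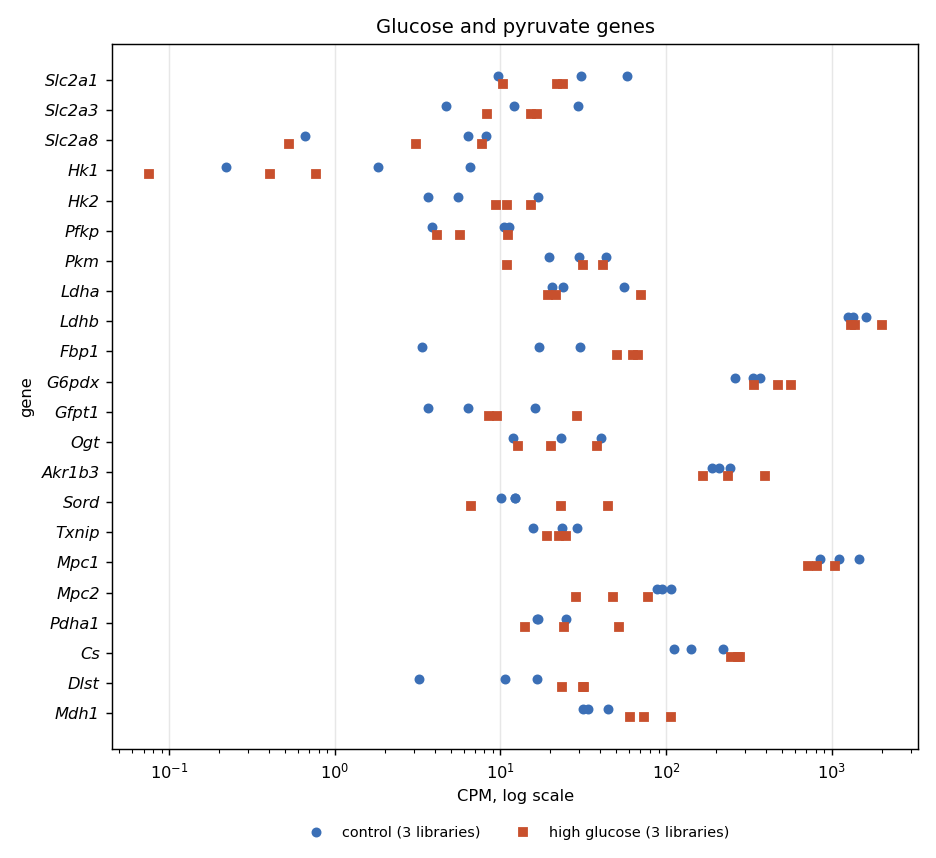
CPM on a log axis in each control and high glucose library for genes of glucose uptake, glycolysis, glucose side pathways and pyruvate oxidation. Fbp1, Cs, Dlst and Mdh1 are higher and Mpc2 lower without overlap between groups, while Slc2a1, Slc2a3, Txnip, Akr1b3 and Ogt overlap.

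Antioxidant and glutathione genes divided, 21 higher and 30 lower with a median of -0.10. Prdx6, a peroxiredoxin that reduces lipid peroxides, was at 106, 160 and 182 CPM in controls and at 54.3, 86.4 and 48.5 CPM with high glucose, a log2 fold change of -1.24 ± 0.32 (SE). Gpx4, the glutathione peroxidase of membrane lipids, was at 169, 176 and 104 CPM in controls and at 111, 73.4 and 60.6 CPM with high glucose, with a small overlap. Slc7a11, which imports cystine for glutathione synthesis, was at 24.0, 44.0 and 64.4 CPM in controls and at 94.4, 64.2 and 127 CPM with high glucose. Chac2, described above, belongs to the same list as a gene that consumes glutathione.

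The superoxide dismutases Sod1 and Sod2 overlapped between groups, with log2 fold changes of -0.65 ± 0.38 and -0.58 ± 0.43 (SE). Nfe2l2, the factor that drives many of these genes, was at 25.7 ± 7.29 CPM (SD, n = 3) in controls and 15.2 ± 3.78 CPM with high glucose. The endoplasmic reticulum stress list split 18 to 18 with a median of -0.04. Its sensor chaperone Hspa5 was at 92.1 ± 31.7 and 85.9 ± 23.7 CPM, and Ddit3, a late stress factor, at 45.8 ± 20.3 and 43.0 ± 10.8 CPM. Manf, a secreted stress-induced factor, was at 172, 167 and 176 CPM in controls and at 105, 95.8 and 97.3 CPM with high glucose, with tight groups.

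Heat shock genes had 22 higher and 17 lower, and Hspa8, the constitutive chaperone, had a log2 fold change of 0.03 ± 0.32 (SE). In the p53 and cell death list, 20 genes were higher and 18 lower. Bcl2l11, which encodes the death-promoting protein Bim, was at 49.6, 89.1 and 55.1 CPM in controls and at 21.7, 34.9 and 20.5 CPM with high glucose. Cdkn1a, the p21 cell cycle inhibitor and p53 target, was at 29.8, 18.4 and 11.1 CPM in controls and at 4.62, 13.1 and 5.14 CPM with high glucose. The first did not overlap between groups and the second did.

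Genes transiently on at the 2-cell stage were mostly higher, 37 of 48 tested, with a median of 0.31 that stayed between 0.15 and 0.40 in every alternative run. In 7 of the 48 the high glucose libraries were all higher and in 1 all lower, against 6.84% and 6.91% of all genes. At an unadjusted p under 0.05, 1 was higher and 0 lower, against 3.88% and 3.5% of all genes. The gene that was higher at that p was Usp17lc, a deubiquitinase gene. It was at 26.9, 33.4 and 28.4 CPM in controls and 93.3, 37.1 and 67.5 CPM with high glucose. Klf17, a transcription factor of this stage, was at 342, 274 and 330 CPM in controls and at 541, 372 and 432 CPM with high glucose, and Tcstv1 at 354, 218 and 343 against 355, 576 and 486 CPM. Both were separated by a narrow margin. Many genes of this list have near-identical copies, and how reads that match several places were counted is not given in the sources used here.

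The summed share of the 2-cell list was 4.62%, 3.22% and 4.46% in controls and 4.92%, 5.48% and 3.77% with high glucose, and the groups overlapped. Zfp352 was at 189 ± 33.7 and 193 ± 70.2 CPM (SD, n = 3). Dux, an inducer of this programme, was at 10.9, 33.0 and 14.1 CPM in controls and at 58.5, 20.9 and 42.0 CPM with high glucose. Genes of early embryonic genome activation had 20 of 30 higher with a median of 0.25. Ctcf, the insulator factor, was at 25.7, 81.9 and 124 CPM in controls and at 195, 148 and 129 CPM with high glucose.

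Stored oocyte transcripts were also mostly higher, 45 of 68 with a median of 0.24, with 7 higher and 2 lower at an unadjusted p under 0.05 (3.88% and 3.5% of all genes). Nlrp4f, of the oocyte Nlrp family, was at 351, 309 and 494 CPM in controls and at 1042, 619 and 627 CPM with high glucose. Slbp, which binds the stem-loop of histone RNAs, was at 185, 266 and 187 CPM in controls and at 590, 279 and 410 CPM with high glucose. Oas1d, an oocyte member of the oligoadenylate synthetase family, went from 177 ± 26.9 CPM (SD, n = 3) to 332 ± 93.5 CPM, and Fbxw15, an F-box protein gene, from 179 ± 36.6 CPM to 293 ± 39.4 CPM. These 4 genes did not overlap between groups.

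The most counted stored transcripts went the other way. Omt2a was at 25525, 29068 and 28895 CPM in controls and at 14774, 20602 and 23073 CPM with high glucose, and its relative Omt2b at 29397, 33636 and 33441 against 16946, 24233 and 27259 CPM. Together with Dppa3 they made the summed share of the stored list 12.6%, 15.3% and 14.8% in controls and 11.7%, 12.4% and 14.1% with high glucose. The ratio of mean shares was therefore 0.894, opposite in sign to the list median. Without the 10 most counted genes in the total it was 1.06. Zp3, of the egg coat, and Nlrp5, of the maternal cortical complex, overlapped between groups, with log2 fold changes of -0.41 ± 0.49 and -0.12 ± 0.40 (SE).

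The machinery that stores and clears maternal RNA had 27 genes higher and 27 lower, with 6 higher and 3 lower at an unadjusted p under 0.05 (3.88% and 3.5% of all genes). Besides Tsnax and Fam46c, the decapping factor Dcp1a was at 64.1, 86.8 and 85.3 CPM in controls and at 141, 134 and 115 CPM with high glucose. Cnot6l, a deadenylase that removes maternal tails, was at 251, 336 and 513 CPM in controls and at 620, 524 and 784 CPM with high glucose. Lsm14a, of cytoplasmic RNA granules, was at 396 ± 107 CPM (SD, n = 3) in controls and 657 ± 101 CPM with high glucose. Paip1, a poly(A)-binding protein partner that promotes translation, was lower, at 3368, 3573 and 2369 CPM in controls and at 2284, 1715 and 1232 CPM with high glucose. Zfp36l2, which recruits the deadenylase to AU-rich RNAs, went from 69.7 ± 11.7 CPM to 35.7 ± 14.7 CPM.

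Genes of nuclear RNA synthesis and processing leaned lower. The spliceosome had 43 of 66 genes lower with a median of -0.23, and RNA polymerase II and Mediator 42 of 68 with a median of -0.17. In 11 and 12 of these, respectively, the high glucose libraries were all lower, against 6.91% of all genes. Prpf38a, a splicing activator, was at 114, 132 and 169 CPM in controls and at 69.6, 62.6 and 60.6 CPM with high glucose. Snrpc, a protein of the U1 particle, was at 56.0, 63.7 and 54.2 CPM in controls and at 24.6, 26.9 and 17.9 CPM with high glucose.

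The subunit genes Polr2h and Med31 had log2 fold changes of -1.16 ± 0.36 and -0.86 ± 0.26 (SE), while Tbp, the TATA-binding protein, stood at 0.04 ± 0.45. The proteasome had 23 of 32 genes lower with a median of -0.23. Psmc6, an ATPase of its regulatory particle, was at 155, 143 and 146 CPM in controls and at 104, 54.3 and 50.7 CPM with high glucose. Psmd11, of the same particle, was at 39.2 ± 6.21 CPM (SD, n = 3) in controls and 70.8 ± 24.5 CPM with high glucose, so that members went both ways.

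Cell cycle genes split 28 higher to 30 lower, and DNA replication genes 27 to 27. Cdc20, an activator of the anaphase-promoting complex, was at 85.6, 115 and 68.9 CPM in controls and at 44.2, 35.8 and 55.5 CPM with high glucose. Ttk, the spindle checkpoint kinase, was at 80.7, 68.4 and 77.8 CPM in controls and at 163, 142 and 142 CPM with high glucose. The kinase was higher and the activator lower, each without overlap between groups. Orc3, of the origin recognition complex, went from 39.3 ± 9.37 CPM (SD, n = 3) to 72.7 ± 16.7 CPM, and Cdk1, the mitotic kinase, from 256 ± 64.8 CPM to 171 ± 21.8 CPM with overlap.

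Among DNA methylation and histone modifiers, 35 genes were higher and 25 lower with a median of 0.08. Ezh2, which places the repressive H3K27 methyl mark, was at 193, 216 and 318 CPM in controls and at 476, 349 and 431 CPM with high glucose. Crebbp, a histone acetyltransferase, was at 10.7, 17.1 and 53.6 CPM in controls and at 59.2, 83.3 and 86.4 CPM with high glucose. Kdm4c, a histone demethylase, was lower, from 32.7 ± 15.4 CPM (SD, n = 3) to 9.38 ± 1.58 CPM. Dnmt1, the maintenance DNA methyltransferase, had a log2 fold change of -0.11 ± 0.42 (SE), and Tet3, the oxidase of maternal origin that acts on the paternal genome, one of 0.62 ± 0.31.

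Pluripotency and lineage factors had 15 genes higher and 17 lower. Besides Gata4, Tfap2c, a factor of the trophectoderm lineage, was at 30.0, 10.1 and 10.5 CPM in controls and at 3.18, 3.54 and 3.26 CPM with high glucose, a log2 fold change of -2.34 ± 0.64 (SE) that was -1.62 without the first control library. Pou5f1, the pluripotency factor Oct4, ranged from 40.5 to 235 CPM in controls and from 74.8 to 127 CPM with high glucose and did not separate the groups.

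Sterol and fatty acid synthesis genes had 27 of 38 lower with a median of -0.26, and 5 were lower and 0 higher at an unadjusted p under 0.05 (3.5% and 3.88% of all genes). Insig1, a brake on the activation of sterol synthesis genes, was at 146, 158 and 92.7 CPM in controls and at 74.3, 76.4 and 68.8 CPM with high glucose. Elovl6, a fatty acid elongase, went from 31.6 ± 10.4 CPM (SD, n = 3) to 10.1 ± 2.76 CPM, and Pmvk, phosphomevalonate kinase, from 15.8 ± 3.78 CPM to 4.36 ± 0.83 CPM. Hmgcs1, an early enzyme of the mevalonate pathway, had a log2 fold change of 0.21 ± 0.32 (SE).

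Autophagy genes had 23 of 35 higher with a median of 0.20, but the most counted of those named was lower. Map1lc3b, which coats autophagosome membranes, was at 1094, 1893 and 1076 CPM in controls and at 512, 694 and 511 CPM with high glucose. Lamp2, a lysosome membrane protein, was at 24.1, 61.8 and 26.8 CPM in controls and at 10.4, 14.3 and 6.04 CPM with high glucose. The summed share of the list was 0.725 times the control share, opposite in sign to its median. Amino acid transporters had 14 genes higher and 12 lower, and Slc7a5, a carrier of large neutral amino acids, was at 5.76 ± 0.32 CPM (SD, n = 3) in controls and 15.7 ± 3.91 CPM with high glucose.

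Some genes had counts in only 1 of the groups. Of the genes tested, 21 (0.124%) were at 0 in all 3 high glucose libraries and 47 (0.277%) at 0 in all 3 control libraries. Ets1, a transcription factor, had 68, 56 and 34 counts in controls. Its control mean was 49.7 times a floor of 3 counts over the high glucose group. Cpped1, a phosphatase gene, had 41, 29 and 72 counts with high glucose, a mean 50.8 times the same floor over the control group. The floor does not allow for the spread between libraries, and the separation follows from how these genes were chosen. Ets1 and Cpped1 had counts in every library of the other group. Lum, Rfx6 and Smpdl3a were each seen in 2 libraries of the other group only. In F13b the counts with high glucose were 111, 81 and 1, and in Klf12 the control counts were 1, 127 and 28.

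Markers of cells other than the embryo were present, at levels that varied by marker. Hba-a1 and Hba-a2 were each at a mean of 143 CPM in controls and 112 CPM with high glucose. Of 14 blood markers 5 passed the filter, 4 of them lower, and Cd74, of antigen-presenting cells, was at 13.8, 24.9 and 24.0 CPM in controls and at 5.83, 2.39 and 10.3 CPM with high glucose. The summed blood level was 262 to 390 CPM in controls and 91.7 to 311 CPM with high glucose, most of it from the haemoglobin genes Hba-a1 and Hba-a2, whose counts were identical. Of 17 stroma and epithelium markers 8 passed, 6 of them lower, with a median log2 fold change of -0.71. Their summed level was 80.8 to 169 CPM in controls and 50.1 to 86.2 CPM with high glucose. Epcam, which embryos also express, made up the larger part, at 72.6 ± 30.1 and 38.4 ± 8.76 CPM (SD, n = 3). Of 8 sperm markers 6 passed, 4 of them lower. The part of these cells in the differences above was not tested.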

How the data were processed

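RNA was sequenced from 9 libraries, each of 3 pooled embryos. The deposited values are raw read counts for each gene symbol. Per the submitters' processing notes, Trim Galore and mm10 were used. The sources used here do not give the aligner, counting tool, annotation or strand setting. Groups came from the labels. Genes were tested with edgeR 4.0.16 in R 4.3.3: TMM scaling, filterByExpr with a minimum count of 10, robust quasi-likelihood fits of all 9 libraries with 1 mean per group, and Benjamini-Hochberg adjustment over 16964 genes, called at 0.05. The common biological coefficient of variation came to 0.731. CPM are scaled with the TMM factors, and errors of log2 fold changes are standard errors from the F statistic. DESeq2 1.42.0, limma-voom 3.58.1, other scaling, filters, the 6 libraries alone, a replicate block, removal of a length trend (chosen after seeing the data) and leaving out each library were alternatives.

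The members and the 38 gene lists were chosen with earlier results of these data known. Named were the 12 genes of lowest p-value each way among named symbols whose mean reached 10 CPM, up to 4 members of lowest p-value in each list and its key genes, up to 4 genes each way at 0 in 1 group, and the 10 most counted genes. Further ribosomal protein genes were named for their printed start windows, for lying above 0, or, as Rplp0, Snord68, Snord72 and Gm15772 were, after values were seen. Positions are from GENCODE M21 and windows from RefSeq. Libraries of 1 group always differed by more than sampling noise (chi-square per degree of freedom 46.5 to 94.3 in the 2 groups compared). In 557 genes no library had a count.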

Additional observations from a re-analysis of the deposited data

How the results depend on the processing

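Leaving out 1 library at a time kept 0 genes called, and gave 528 to 946 higher and 474 to 704 lower genes at an unadjusted p under 0.05. Of the other settings, DESeq2 called 122 genes and the rest 0. Genes higher at an unadjusted p under 0.05 numbered 1031 without a filter on low counts and 399 with a stricter one. Of 680 list medians recomputed, 657 shifted by less than the standard deviation of the list's median between libraries of a group. A list of wide spread, such as the glucose transporters, could thus shift far and not be counted as moved. Of 4367 values of single genes, 25 moved beyond that spread for the gene and 32 passed the threshold, the latter with DESeq2. Where a setting gave an adjusted p, leading genes and list members of lowest p-value were judged by sign and threshold alone. These counts are therefore no measure of stability. Of the moved genes the report names Nop10, at -0.65 with the length trend removed, and 6 genes at 0 in 1 group, whose fitted values it does not print. The median of complexes II to IV was -0.29 and that of the whole respiratory chain with ATP synthase -0.30 with the length trend removed. The pentose phosphate median was 0.38 without a filter, 0.013 with the stricter filter and 0.054 with limma-voom. The autophagy median was 0.35 with limma-voom and 0.14 with the length trend removed. Without the 10 most counted genes in the total, the share ratio of the stored oocyte list was 1.06, and that of the DNA methylation and histone modifier list was 1.23 (0.719 with them). Of these most counted genes, Dppa3 is in both lists, and Omt2a and Omt2b are in the stored list. With 1 library left out, medians ranged from -0.69 to -0.41 for complexes II to IV, -0.25 to 0.20 for the pentose phosphate pathway, -0.026 to 0.42 for glucose sensing, -0.25 to 0.098 for endoplasmic reticulum stress, -0.41 to -0.063 for the proteasome, -0.10 to 0.12 for the cell cycle, -0.50 to -0.24 for sterol and fatty acid synthesis, 0.031 to 0.47 for autophagy and -0.91 to 1.15 for sperm markers. The log2 fold changes of Hba-a1 and Hba-a2 ranged from -0.64 to 0.039, above 0 without the first high glucose library. Except where a setting tests fewer genes or libraries, the cause was not tested. After group means were removed, same-numbered libraries correlated at 0.085, 0.011 and 0.050, and differently numbered ones at -0.076 to 0.036. With 3 libraries per group, these values cannot decide whether replicate numbers pair the samples. A fit with the replicate number as a block called 0 genes, with 665 higher and 533 lower at an unadjusted p under 0.05, a pentose phosphate median of -0.051 and an autophagy median of 0.36. The median standard error was 0.986 in genes of 1 to 10 CPM and 0.314 in genes of 100 to 1000 CPM.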
